A study of Mus musculus with 6 samples.

Results

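A set of 10 genes of megakaryocytes and platelets was followed in the RNA of LSK cells, a mouse bone marrow fraction without lineage markers but with Sca-1 and c-Kit, in which blood stem cells and the earliest progenitors are found. They were chosen by symbol, as platelet integrins, glycoproteins and granule genes, and are 10 of the 23420 genes in the files: Itga2b, Itgb3, Gp9, Gp1bb, Selp, Pf4, Vwf, Rab27b, Clec1b and Cavin2, the last listed under its older symbol Sdpr. A library was sequenced for each of 3 bcat(ex3)osb mice (mutant mice below), whose osteoblasts carry constitutively active β-catenin signalling, and for each of 3 wild-type (WT) littermates. Osteoblasts are the bone-forming cells of the marrow, and the sorted blood progenitors are their neighbours. By its title the series belongs to a study of how this niche relates to myeloid malignancy. For the driver of the osteoblast change and the age of the mice, the sources used here give nothing.

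Megakaryocytes are large marrow cells that shed platelets. Platelets bind fibrinogen through an integrin of an αIIb and a β3 chain, bind von Willebrand factor through the glycoprotein Ib-IX-V complex, and release adhesive proteins and chemokines from α-granules. Transcripts of several of these genes are known to occur in stem cells and early progenitors as well as in megakaryocytes, and von Willebrand factor and P-selectin are also made by endothelial cells.

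Total counts were between 15431235 and 19956774 per library. Levels are given as CPM, that is counts scaled to the TMM-adjusted library size, and as the deposited FPKM, which also divides by gene length and is the scale used to compare genes with each other. Of the markers that define the sorted fraction, Kit, Cd34 and Flt3 were at 323 CPM or more in each library, and Ly6a, which encodes Sca-1, was 65.9 to 81.5 CPM over the mutant and 148 to 162 over the WT mice. The T cell gene Cd3e had at most 12 counts, while the myeloid gene Itgam reached 75.8 CPM. Genes of at most 2810 bases, the median length of the genes tested, took 64.8% of the total in mutant mouse 2 and 61.5% in WT mouse 2, against 49.4% to 53.6% in the other 4 libraries. Mutant mouse 2 also stood apart on the first principal component, with 49.9% of the variance. Counts of Xist and of Y-linked genes marked mutant mice 1 and 2 as male and the other 4 as female. In whole-population RNA, more cells of a type and more RNA per cell cannot be told apart.

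Itga2b and Selp, 2 of the 10 genes, lay higher in all 3 mutant mice than in all 3 WT mice, by 3.37-fold and 2.79-fold in the fitted means. Gp9, Pf4, Itgb3, Vwf and Rab27b overlapped between the genotypes, and Gp1bb, Clec1b and Cavin2 were too low to be tested. Of the 10, 7 passed the filter on low counts. By edgeR's quasi-likelihood test 0 of these 7 passed an adjusted p of 0.05 in either direction, and over all 12653 genes tested the share called was 0% higher and 0% lower. Taking instead an unadjusted p under 0.05, 2 of the 7 were higher and 0 lower, where 3.43% and 3.13% of all genes tested were. The mutant values lay above the WT values without overlap for 2 of the 7 and below for 0, where this held for 6.89% and 7.67% of all genes tested. A positive log2 fold change (mutant over WT) was found for 5 of the 7, against 50.3% of all genes tested, and the median was 0.34 against 0.00 over all genes. This median was 0.31 to 0.60 with 1 mouse left out and -0.0045, with 3 of the 7 positive, without both mice numbered 2, and the SD of the median over the 7 genes between mice of a genotype was 0.40. For a single gene, 3 mice against 3 allow no exact permutation p (two-sided) below 0.1. The 10 genes were chosen with earlier results of these data known, so their counts beside these shares are a description and not a test.

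**Figure D1:**
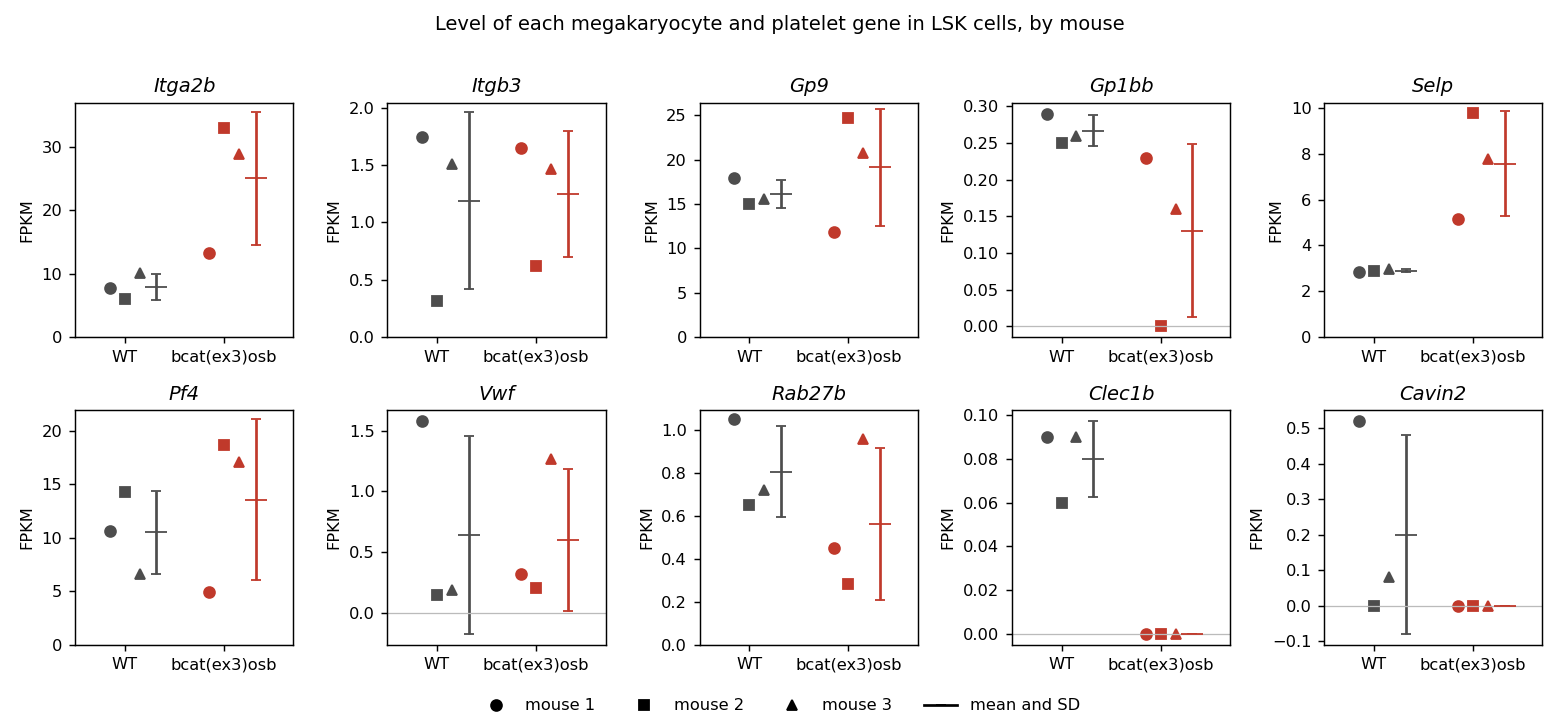
Deposited FPKM of each of the 10 genes in the 3 WT and the 3 bcat(ex3)osb mice, with 1 marker shape per mouse and the mean and SD beside the points; each panel has its own axis. Itga2b and Selp separate the genotypes, while Gp9, Pf4, Itgb3, Vwf and Rab27b overlap, and Clec1b and Cavin2 are at 0 in the mutant mice.

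Itga2b encodes αIIb (CD41), the chain that marks the megakaryocyte lineage and is also present on early blood progenitors. It lies on chromosome 11 from 102453297 to 102469883 (GRCm38.p6, minus strand). Itga2b read 45.7, 126 and 97.2 CPM for mutant mice 1, 2 and 3, against 25.2, 20.7 and 33.7 for WT mice 1, 2 and 3. The lowest mutant mouse was above the highest WT mouse, and mutant mice 2 and 3 were each more than 2-fold above mutant mouse 1. The means were 89.6 ± 40.6 CPM (mutant mean ± SD, n = 3) and 26.6 ± 6.59 (WT, n = 3). The fitted log2 fold change was 1.75 ± 0.38 (SE), with an edgeR adjusted p of 0.333. Per length it moved from the third highest of the 10 genes in WT mice, at 7.95 ± 2.05 FPKM, to the highest in mutant mice, at 25.1 ± 10.5 FPKM.

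Itgb3 encodes β3 (CD61), the partner chain of αIIb, which also pairs with αv in other cells. It lies on chromosome 11 from 104608000 to 104670476. Itgb3 read 9.58, 4.0 and 8.26 CPM for mutant mice 1, 2 and 3, against 9.55, 1.82 and 8.46 for WT mice 1, 2 and 3. The 2 low values came from the mice numbered 2, 1 of each genotype, and the other 4 values lay close together. These 2 libraries also had the largest share of short genes. With the trend on gene length removed, Itgb3 read 8.88, 5.15 and 7.47 CPM for mutant mice 1, 2 and 3. The WT values were then 7.91, 2.09 and 7.68 for mice 1, 2 and 3, so the mice numbered 2 stayed lowest. The part of gene length was not tested. The log2 fold change was 0.14 ± 0.62 with an edgeR adjusted p of 0.980, and it was -0.31 without WT mouse 2 and -0.11 without mutant mouse 1. The transcripts of the 2 chains were far from equal per length: the ratio of Itga2b to Itgb3 was 8.02, 52.9 and 19.8 (mutant mice 1, 2 and 3) against 4.44, 19.2 and 6.70 (WT mice 1, 2 and 3). The groups overlapped, since WT mouse 2 lay within the mutant range.

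Gp9 encodes glycoprotein IX, a small leucine-rich chain of the von Willebrand factor receptor. It lies on chromosome 6 from 87776131 to 87779786, where a long non-coding gene overlaps it on the same strand. Gp9 read 9.69, 22.3 and 16.4 CPM for mutant mice 1, 2 and 3, against 13.7, 12.2 and 12.3 for WT mice 1, 2 and 3. Mutant mice 2 and 3 were above all WT mice and mutant mouse 1 below them, so the groups overlapped, and the SD was 6.29 CPM in mutant against 0.877 CPM in WT mice. The fitted log2 fold change was 0.34 ± 0.34 with an edgeR adjusted p of 0.907. Without mutant mouse 1 it was 0.60, and without mutant mouse 2 it was 0.04. Gp9 was the highest of the 10 genes per length in WT mice, at 16.1 ± 1.54 FPKM.

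Gp1bb, the β chain of glycoprotein Ib in the same complex, was at 9, 0 and 6 counts (mutant mice 1, 2 and 3) against 12, 8 and 11 (WT mice 1, 2 and 3). Its level was 0.267 ± 0.0208 FPKM in WT mice, far below that of Gp9. The 95% counting interval of mutant mouse 1 (0.222 to 0.920 CPM) overlapped that of WT mouse 1 (0.301 to 1.02 CPM). The 0 counts of mutant mouse 2 have an upper limit of 0.238 CPM on the same scale. This overlaps WT mouse 2 (0.225 to 1.02 CPM) but is below the lower limits of WT mouse 1 (0.301) and WT mouse 3 (0.267). In CPM each mutant mouse was below each WT mouse, at 0.485, 0 and 0.333 (mutant mice 1, 2 and 3) against 0.582, 0.520 and 0.535 (WT mice 1, 2 and 3). The gene lies on chromosome 16 from 18620319 to 18622403 and overlaps Sept5 on the same strand, and Sept5 itself had 1 to 15 counts per library. A Sept5 exon from 18620502 to 18622796 covers most of Gp1bb, and reads in the overlap cannot be assigned from these files. The part of this overlap in the low level of Gp1bb was not tested. The other chains of the receptor were better covered. Gp1ba, the chain that binds von Willebrand factor, read 0.592, 4.77 and 3.94 CPM for mutant mice 1, 2 and 3, against 3.83, 1.30 and 1.51 for WT mice 1, 2 and 3. Gp5, the thrombin-cleaved chain, read 2.96, 11.5 and 10.3 CPM for mutant mice 1, 2 and 3, against 5.38, 4.81 and 3.94 for WT mice 1, 2 and 3. In both, as in Gp9, mutant mouse 1 was the lowest of the 6 mice and mutant mouse 2 the highest, and the log2 fold changes of 0.48 ± 0.81 and 0.81 ± 0.52 did not pass (edgeR adjusted p of 0.937 and 0.861). With 1 mouse left out, Gp1ba lay between 0.026 without mutant mouse 2 and 1.13 without WT mouse 1. Gp5 then lay between 0.49 without mutant mouse 2 and 1.21 without mutant mouse 1.

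Selp encodes P-selectin, an α-granule membrane protein that reaches the platelet surface on activation and binds leukocytes. It lies on chromosome 1 from 164115264 to 164150026, where 2 non-coding genes are annotated on the opposite strand, and whether the counting used strand is not stated in the sources used here. Selp read 17.9, 37.2 and 26.1 CPM for mutant mice 1, 2 and 3, against 9.26, 9.88 and 9.87 for WT mice 1, 2 and 3. The WT mice were within 1.07-fold of each other, and each mutant mouse was above all of them. The means were 27.1 ± 9.71 CPM (mutant mean ± SD, n = 3) and 9.67 ± 0.356 (WT, n = 3). The log2 fold change was 1.48 ± 0.31 (SE), with an edgeR adjusted p of 0.333. Its level per length was 7.57 ± 2.30 FPKM in mutant and 2.89 ± 0.0624 FPKM in WT mice. Cdh5, which defines endothelial cells, another source of Selp, was under the filter but also had more counts in each mutant than in each WT library, with 13, 16 and 6 counts (mutant mice 1, 2 and 3) against 4, 0 and 0 (WT mice 1, 2 and 3). Some other endothelial markers went the other way without overlap. These were Stab2 with 3, 0 and 3 counts (mutant mice 1, 2 and 3) against 25, 5 and 23 (WT mice 1, 2 and 3), Tie1 (-1.22 ± 0.37) and Emcn (-1.16 ± 0.36). Tie1 is also among the stem cell markers used below. Of 12 endothelial markers tested, 5 were positive, up to a log2 fold change of 0.93, and 7 negative, with a median of -0.15. The part of endothelial cells in the values of Selp was not tested.

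The log2 fold changes of Itga2b and Selp stayed above 1 in each fit. With 1 mouse left out in turn, Itga2b lay between 1.43 and 2.07 and Selp between 1.18 and 1.71, both lowest values being those with mutant mouse 2 left out. A fit with a term for sex gave 1.87 for Itga2b and 1.43 for Selp. As mutant mice 1 and 2 were the only males, its genotype term rests on mutant mouse 3 against the WT mice. With the trend on gene length removed they were 1.84 and 1.55. With 1 mouse left out or the length trend removed, the edgeR adjusted p stayed above 0.05. DESeq2, however, called both higher, with an adjusted p of 0.00160 for Itga2b and 0.00280 for Selp. DESeq2 called 0.739% of 13940 genes higher and 0.524% lower. limma-voom called 0 genes over the whole table.

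**Figure D2:**
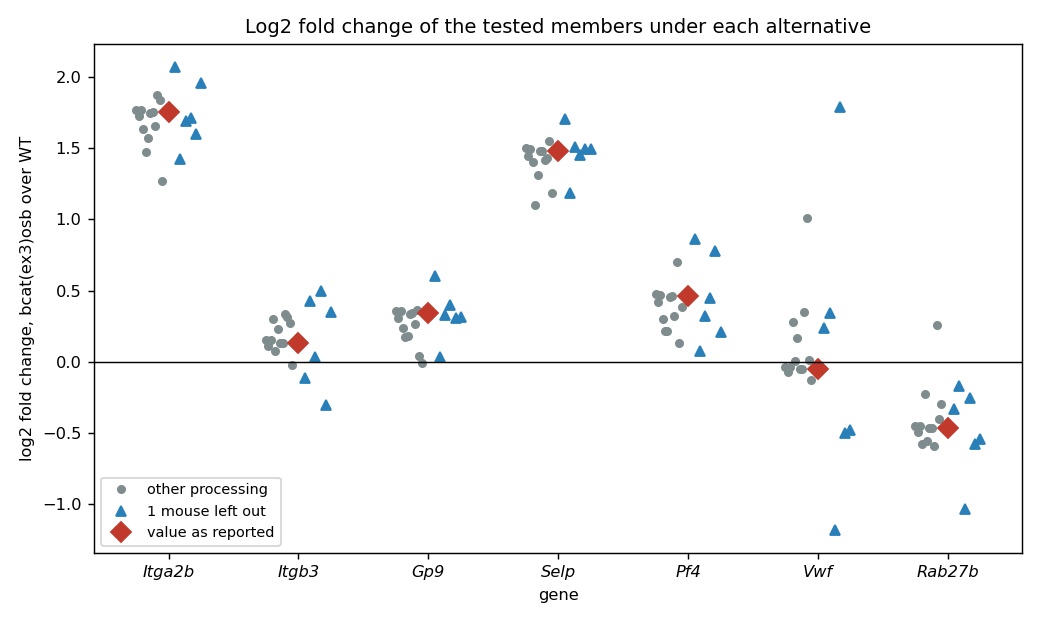
Log2 fold change (mutant over WT) of the 7 tested genes as reported (diamonds), with 1 mouse left out (triangles) and under each other processing (circles). Itga2b and Selp stay above 1 throughout, Vwf lies between -1.18 and 1.79, and the other 4 genes lie between -1.03 and 0.86.

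Pf4 encodes platelet factor 4, a chemokine stored in α-granules. It lies on chromosome 5 from 90772435 to 90773383. Pf4 read 2.91, 12.2 and 9.81 CPM for mutant mice 1, 2 and 3, against 5.92, 8.45 and 3.75 for WT mice 1, 2 and 3. Mutant mouse 1 was the lowest of the 6 and mutant mice 2 and 3 the highest, a 4.19-fold range within 1 genotype. The fitted log2 fold change was 0.46 ± 0.57 with an edgeR adjusted p of 0.916, and it was 0.08 without mutant mouse 2. Ppbp, another platelet chemokine, was nearly absent by comparison, at 7, 2 and 11 counts (mutant mice 1, 2 and 3) against 50, 7 and 8 (WT mice 1, 2 and 3).

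Vwf encodes von Willebrand factor, the large adhesive protein that tethers platelets to collagen. It lies on chromosome 6 from 125552948 to 125686679. Vwf read 2.85, 1.94 and 11 CPM for mutant mice 1, 2 and 3, against 13.2, 1.37 and 1.65 for WT mice 1, 2 and 3. In each genotype 1 mouse was far above the rest, mutant mouse 3 and WT mouse 1, with a 5.67-fold range within the mutant and a 9.70-fold range within the WT mice. The log2 fold change was -0.05 ± 0.99 with an edgeR adjusted p of 0.995. It was 1.79 without WT mouse 1, -1.18 without mutant mouse 3 and 1.01 with sex as a covariate. The SD of log2 CPM of Vwf was 1.30 within mutant and 1.79 within WT mice, against medians of 0.380 and 0.323 over all genes tested.

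Rab27b encodes a small GTPase that moves secretory granules to the plasma membrane. The gene lies on chromosome 18. Rab27b read 3.23, 2.19 and 6.65 CPM for mutant mice 1, 2 and 3, against 7.08, 4.62 and 4.96 for WT mice 1, 2 and 3. Mutant mice 1 and 2 were below the WT mice and mutant mouse 3 within their range. The fitted log2 fold change was -0.46 ± 0.50 with an edgeR adjusted p of 0.909, -1.03 without mutant mouse 3 and 0.26 with sex as a covariate. Its paralog Rab27a, which acts in lytic and dense granule release, stood higher by contrast, at 105 ± 7.76 CPM (mutant mean ± SD, n = 3) and 72.2 ± 13.4 (WT, n = 3), with a log2 fold change of 0.54 ± 0.20 (edgeR adjusted p of 0.680).

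Clec1b and Cavin2 were at the edge of detection. Clec1b, the podoplanin receptor CLEC-2 on chromosome 6 from 129397297 to 129405413, had 0 counts in each mutant library and 2, 1 and 2 counts in WT mice 1, 2 and 3. Both groups were under the floor of 3 counts per library, so no fold is given. Cavin2, a coat protein of caveolae that is abundant in platelets, lies on chromosome 1 from 51289126 to 51302960. It had 0 counts in each mutant library and 31, 0 and 5 counts in WT mice 1, 2 and 3, so that WT mouse 2 was also at 0 and the WT counts came mostly from WT mouse 1. An antisense gene is annotated opposite Cavin2.

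Several transcripts of mature platelets, Ppbp among them, were highest in the same WT library as Cavin2. Tubb1, the tubulin of the platelet rim, had 6, 0 and 2 counts (mutant mice 1, 2 and 3) against 40, 4 and 5 (WT mice 1, 2 and 3). Thbs1, the α-granule protein thrombospondin, had 0 counts in each mutant library and 53, 0 and 12 counts in WT mice 1, 2 and 3. The red cell gene Slc4a1 had 116 counts in WT mouse 1 and at most 4 in each other library, and the erythroid gene Alas2 had 453 and at most 48. By counts Treml1 (26) was also highest there. Gp1ba was highest there by counts (79, against 74 in mutant mouse 2). In CPM, however, mutant mice 2 (4.77) and 3 (3.94) were above WT mouse 1 (3.83) for Gp1ba. By counts Gp5 was highest in mutant mouse 3 (185), though in CPM mutant mouse 2 (11.5) was above mutant mouse 3 (10.3). Pf4 was highest in mutant mouse 2 (189 counts). Gp6, the platelet collagen receptor, was at 0 in each library. WT mouse 1 was the highest WT mouse for 38.1% of all genes tested. The part of these transcripts in the values of Vwf and Cavin2 was not tested.

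**Figure D3:**
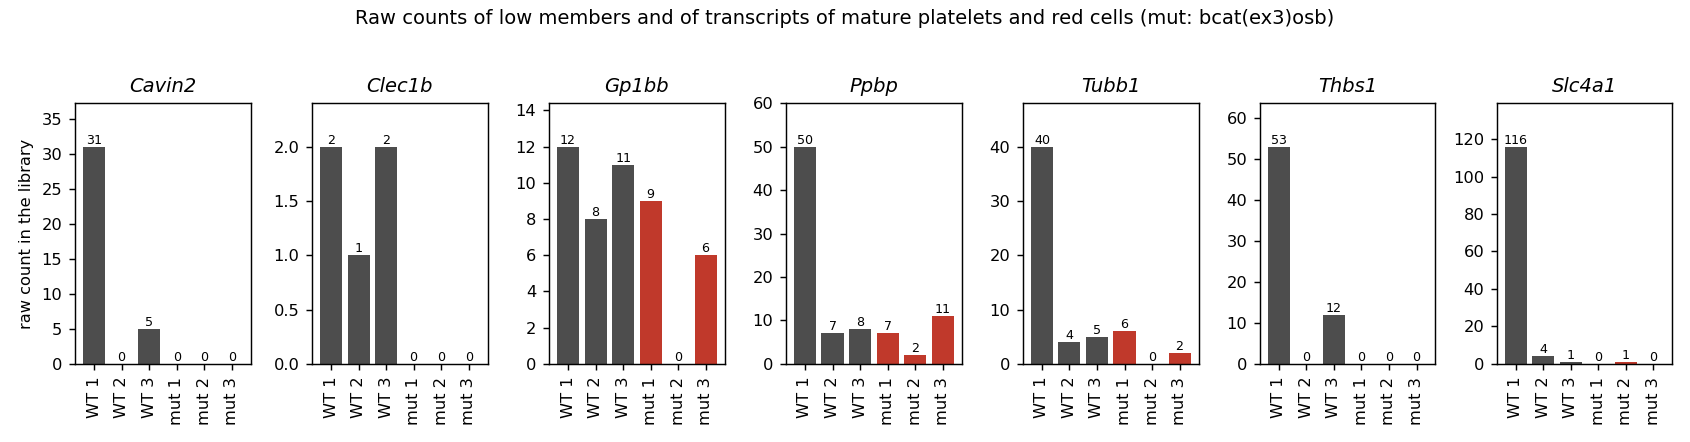
Raw counts in each library of the 3 genes too low to be tested (Cavin2, Clec1b, Gp1bb), of 3 transcripts of mature platelets (Ppbp, Tubb1, Thbs1) and of the red cell gene Slc4a1, in WT (grey) and bcat(ex3)osb (red) mice. WT mouse 1 holds the highest count of Cavin2, Ppbp, Tubb1, Thbs1 and Slc4a1.

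Set in order of level per length, the WT mice had Gp9, Pf4, Itga2b, Selp, Itgb3, Rab27b, Vwf, Gp1bb, Cavin2 and Clec1b. Gp9 did not overlap Pf4, Itga2b did not overlap Selp, and Selp did not overlap Itgb3, while each other pair of neighbours overlapped between mice. In mutant mice the order began Itga2b, Gp9, Pf4 and Selp, with overlap among each of these neighbours, followed after a gap by Itgb3. By mean FPKM, Itga2b was above 39.4% of the genes tested in WT and 67.9% in mutant mice, and Selp above 22.7% and 40.1%. Gp9 changed place less, from 55.9% to 61.2%, and Vwf stood at 8.05% and 8.61%.

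Among the mutant mice the 7 tested genes followed different orders. Itga2b, Selp, Gp9 and Pf4 were highest in mutant mouse 2, then 3, then 1, an order that 19.7% of all genes tested had. Vwf and Rab27b were highest in mutant mouse 3 and lowest in 2, and Itgb3 was highest in 1 and lowest in 2. The first 4 genes are also the shorter ones, at 588 to 3438 bases, and the other 3 are 5779 to 8834. Over all genes tested, mutant mouse 2 was the highest mutant mouse for 79.0% of genes of up to 1500 bases. It was the lowest for 72.0% of those over 5000. Itga2b (3437 bases) and Selp (3438) lie between these classes. For genes of such middle length, mutant mouse 2 was the highest for 36.1% and the lowest for 45.5%. The part of gene length in this division was not tested. With the trend on length removed, Itga2b and Selp kept their order, with Itga2b at 43.7, 142 and 91.1 CPM for mutant mice 1, 2 and 3, whereas Gp9 and Pf4 were then highest in mutant mouse 3. Mutant mouse 1 stayed the lowest mutant mouse for these 4 genes, and mutant mouse 2 the lowest for the other 3.

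**Figure D4:**
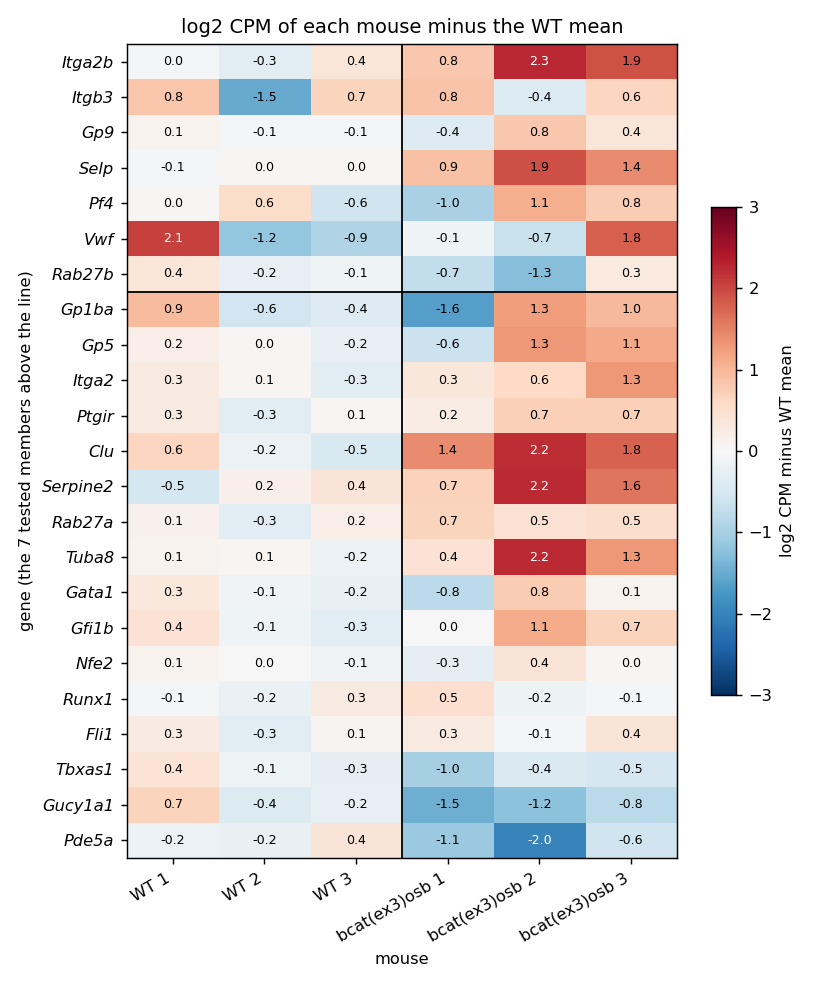
Log2 CPM of each mouse minus the mean of the 3 WT mice, for the 7 tested members (above the line) and for other platelet and megakaryocyte genes, on a scale from -3 to 3. Itga2b and Selp are above the WT mean in each mutant mouse, as are Itga2, Ptgir, Clu, Serpine2, Rab27a and Tuba8 among the others. So is Gfi1b, by only 0.0019 in bcat(ex3)osb mouse 1. Vwf is high in WT mouse 1 and bcat(ex3)osb mouse 3.

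The 250 bases before the RefSeq start (GRCm38.p6) are printed for the 4 members with the highest levels, because Itga2b and Selp separated the genotypes and Gp9 and Pf4 did not. Capitals mark matches, on either strand, to 5 short motifs of factors known from megakaryocyte genes: GATAA (GATA factors), AGGAAG and CGGAAG (ETS factors), TGTGGT (RUNX factors) and TGACTCA (NF-E2 and AP-1). The windows are chr11:102469884-102470133 (minus strand), chr1:164115014-164115263 (plus), chr6:87777820-87778069 (plus) and chr5:90772185-90772434 (plus).
Itga2b: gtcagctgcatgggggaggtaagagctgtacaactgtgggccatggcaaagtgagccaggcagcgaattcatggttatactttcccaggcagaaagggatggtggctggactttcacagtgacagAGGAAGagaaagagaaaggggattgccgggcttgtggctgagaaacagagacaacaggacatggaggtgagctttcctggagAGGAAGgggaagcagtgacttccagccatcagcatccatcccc
Selp: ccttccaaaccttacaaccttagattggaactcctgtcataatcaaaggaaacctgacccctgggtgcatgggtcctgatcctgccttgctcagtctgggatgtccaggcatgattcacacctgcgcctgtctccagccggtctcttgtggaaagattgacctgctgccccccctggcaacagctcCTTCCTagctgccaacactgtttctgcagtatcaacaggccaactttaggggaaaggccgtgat
Gp9: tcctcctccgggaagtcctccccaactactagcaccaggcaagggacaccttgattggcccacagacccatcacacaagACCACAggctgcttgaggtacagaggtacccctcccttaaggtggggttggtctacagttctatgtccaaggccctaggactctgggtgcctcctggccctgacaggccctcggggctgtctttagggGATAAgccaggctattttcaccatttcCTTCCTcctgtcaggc
Pf4: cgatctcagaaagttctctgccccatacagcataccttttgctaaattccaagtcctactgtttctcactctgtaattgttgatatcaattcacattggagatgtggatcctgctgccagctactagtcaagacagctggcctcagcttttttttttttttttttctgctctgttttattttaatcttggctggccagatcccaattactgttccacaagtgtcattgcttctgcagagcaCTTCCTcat
AGGAAG was found in each of these 4 windows, at 2 places in Itga2b (43 to 38 and 125 to 120 bases before the start) and once, as CTTCCT, in Selp (64 to 59), Gp9 (16 to 11) and Pf4 (9 to 4). Of 32817 promoters of the same length, 29.5% hold AGGAAG. Gp9 also has GATAA 43 to 39 bases before its start and TGTGGT, as ACCACA, 171 to 166 before it. GATAA is in 22.6% and TGTGGT in 14.0% of all promoters. RefSeq promoters were matched for 7 of the 10 genes. Among these 7, AGGAAG was in 4, GATAA in 2 (Gp9 and Clec1b), CGGAAG in 1 (Gp1bb) and TGACTCA in 0. CGGAAG is in 13.6% and TGACTCA in 4.46% of all promoters. The genes that separated the genotypes and those that did not thus shared the ETS-type letters, and a match is only a description of the sequence. The Itga2b window overlaps, from 102469943 to 102470122, an exon of a non-coding Itga2b transcript in GENCODE M21, and the Gp9 window lies inside the longer span given above for Gp9.

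Other genes of the platelet programme lay on both sides of the WT mice. Of 15 platelet receptors tested, the log2 fold change was above 0 for 10 and below 0 for 5 (median 0.23), and 0 passed an adjusted p of 0.05 in either direction. At an unadjusted p under 0.05, 0 were higher and 0 lower, beside 3.43% and 3.13% of all genes tested. Itga2, the collagen-binding integrin chain, read 3.98, 4.77 and 7.87 CPM for mutant mice 1, 2 and 3, against 3.78, 3.25 and 2.53 for WT mice 1, 2 and 3 (log2 fold change 0.80 ± 0.44), and was the 1 receptor of the 15 whose mutant values all lay above the WT values. Of all genes tested, 6.89% had each mutant value above the WT values. Ptgir, the prostacyclin receptor, had 0.55 ± 0.26 and overlapped. Treml1, a receptor of platelet α-granules, was at 0.363 ± 0.525 CPM (mutant mean ± SD, n = 3) and 1.04 ± 0.356 (WT, n = 3).

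Of 26 genes of granule cargo and granule formation tested, 15 were positive and 11 negative, with a median of 0.13. At an unadjusted p under 0.05, 5 lay higher (Clu, Serpine2, Rab27a, F5 and Tgfb1) and 2 lower (Mmrn1 and Slc35d3), while 0 reached the adjusted threshold. Of all genes tested, 3.43% were higher and 3.13% lower by that unadjusted p. The mutant values lay above the WT values without overlap for 6 of the 26 (Clu, Serpine2, Rab27a, F5, Lyst and Hps1) and below for 1 (Mmrn1), beside 6.89% and 7.67% of all genes tested. Clu, a chaperone stored in α-granules, read 4.25, 7.48 and 5.43 CPM for mutant mice 1, 2 and 3, against 2.47, 1.37 and 1.12 for WT mice 1, 2 and 3, a log2 fold change of 1.78 ± 0.50 (edgeR adjusted p of 0.503, DESeq2 0.0439). Serpine2, a protease inhibitor that platelets also store, read 10.2, 30.2 and 19.2 CPM for mutant mice 1, 2 and 3, against 4.36, 7.02 and 8.22 for WT mice 1, 2 and 3, 1.60 ± 0.45 (edgeR 0.503, DESeq2 0.0404). DESeq2 thus called these 2 genes as it did Itga2b and Selp. Both separated the genotypes and had the same order of mutant mice as Itga2b and Selp, an order that 19.7% of all genes tested had. Mmrn1, the factor V carrier multimerin 1, went the other way, at 24.3, 2.32 and 29.2 CPM for mutant mice 1, 2 and 3, against 127, 38.7 and 45.4 for WT mice 1, 2 and 3 (-1.91 ± 0.82), and coagulation factor V (F5) itself was at 9.65 ± 2.01 CPM (mutant mean ± SD, n = 3) and 4.03 ± 2.13 (WT, n = 3).

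**Figure D5:**
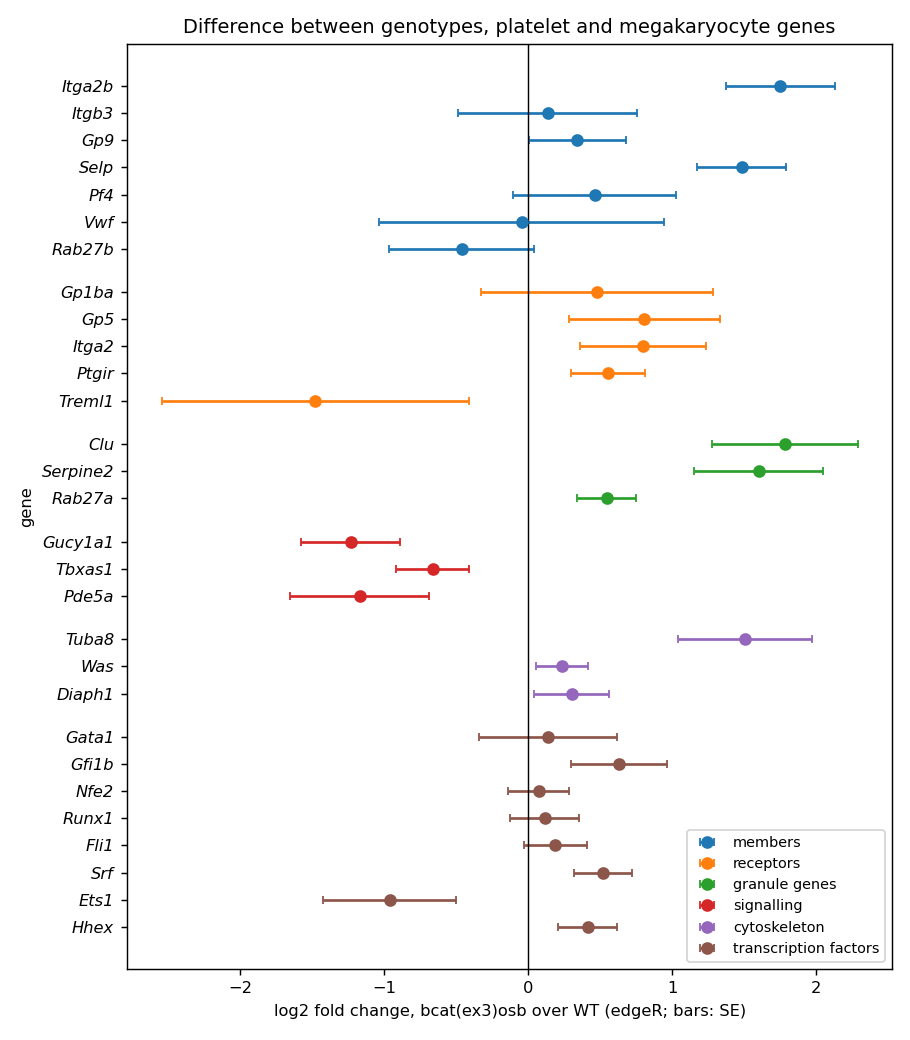
Log2 fold change (mutant over WT) with its SE by edgeR for the 7 tested members and for platelet and megakaryocyte genes taken from each list by the rule for named genes, so that Mmrn1 (-1.91), F5, Tgfb1 and Slc35d3 are not plotted. Of the genes plotted, Itga2b (1.75), Selp (1.48), Clu (1.78), Serpine2 (1.60) and Tuba8 (1.51) lie farthest to the right, and Treml1, Gucy1a1 and Pde5a farthest to the left.

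Of 20 platelet signalling and enzyme genes tested, 11 were positive and 9 negative, with a median of 0.03. At an unadjusted p under 0.05, 0 were higher and 3 lower, namely Gucy1a1, Tbxas1 and Pde5a, beside 3.43% and 3.13% of all genes tested. The adjusted threshold was passed by 0. Gucy1a1, a chain of the nitric oxide receptor, was at 16.2 ± 3.82 CPM (mutant mean ± SD, n = 3) and 38.2 ± 16.5 (WT, n = 3). Tbxas1, thromboxane synthase, was at 57.7 ± 11.4 and 91.5 ± 24.6 CPM, and Pde5a, which degrades cyclic GMP, at 2.91 ± 1.33 and 6.57 ± 1.64 CPM. Each of the 3 was lower in all mutant than in all WT mice, as was Dok2, while Fermt3 and Rap1b were higher in all mutant mice. This made 4 below and 2 above of the 20, beside 7.67% and 6.89% of all genes tested. Of 15 cytoskeletal and platelet release genes tested, 7 were positive and 8 negative, with a median of -0.03. By the unadjusted p, 1 (Tuba8) lay higher and 0 lower, beside the same 3.43% and 3.13%. Tuba8, an α-tubulin of megakaryocytes and muscle, read 7.43, 26.1 and 13.7 CPM for mutant mice 1, 2 and 3, against 5.97, 5.72 and 4.91 for WT mice 1, 2 and 3 (1.51 ± 0.46, edgeR adjusted p of 0.558).

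Of 21 transcription factors of the lineage tested, 14 were positive and 7 negative, with a median of 0.08, and 0 passed the adjusted threshold. Where the unadjusted p was under 0.05, 1 (Srf) lay higher and 0 lower, beside 3.43% and 3.13% of all genes tested. Gata1, which drives megakaryocyte and red cell genes, read 2.85, 8.52 and 5.32 CPM for mutant mice 1, 2 and 3, against 6.26, 4.62 and 4.28 for WT mice 1, 2 and 3 (0.14 ± 0.48). Gfi1b, a repressor needed for megakaryocyte maturation, read 29.8, 64.9 and 47.5 CPM for mutant mice 1, 2 and 3, against 40.4, 27.4 and 23.8 for WT mice 1, 2 and 3 (0.63 ± 0.33). Both followed the order of mutant mice seen for Itga2b, as did 19.7% of all genes tested. Mutant mouse 1 was below all WT mice for Gata1 and within their range for Gfi1b. Nfe2 (0.07 ± 0.21), Runx1 (0.11 ± 0.24) and Fli1 (0.19 ± 0.22) differed between genotypes by less than their SE. Srf, which acts on the cytoskeleton of megakaryocytes, had 0.52 ± 0.20, Hhex 0.41 ± 0.20, and Ets1 -0.96 ± 0.46. Among genes of thrombopoietin signalling 11 of 16 were positive, with a median of 0.05. By the unadjusted p, 1 (Socs3) lay higher and 0 lower, beside the same 3.43% and 3.13%. Socs3, a feedback inhibitor, had 1.02 ± 0.36, Socs1 0.51 ± 0.29 and the kinase gene Lyn 0.24 ± 0.20.

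Markers of other cells differed between the same mice. The 12 granulocyte-monocyte markers, all detected, summed to 6908 to 11965 CPM over the mutant and 1764 to 3715 over the WT mice. Of them, 11 were positive, with a median log2 fold change of 1.88. The 10 B cell markers, all detected, summed to 73.6 to 630 CPM over the mutant and 650.2 to 1153 over the WT mice, and the 12 macrophage markers to between 25.9 and 103 and between 117 and 186 CPM. Of 18 stem cell markers, all detected, 4 were positive and 14 negative, with a median of -0.50. They summed to 3315 to 3982 CPM over the mutant and 3298 to 4971 over the WT mice. Kit, Cd34 and Flt3, found across the sorted fraction, are among the 18 and hold a large part of these sums. Procr, the endothelial protein C receptor of stem cells, was at 24.7 ± 3.90 and 38.1 ± 8.13 CPM. Slamf1 (CD150), which marks stem cells and megakaryocyte progenitors, was at 3.36 ± 1.09 and 4.65 ± 2.23 CPM. Of 18 endothelial markers 17 were detected, with Sox17 at 0, and their sums overlapped, at 520 to 763 CPM in mutant and 540 to 632 CPM in WT mice. Of the endothelial markers tested, 5 were positive and 7 negative, with a median of -0.15. Of 15 erythroid markers 13 were detected, with Hba-a1 and Hba-a2 at 0, and their sums overlapped, at 606 to 1424 CPM in mutant and 867 to 1398 CPM in WT mice. Of 10 markers of mature lineages tested, 2 were positive and 8 negative, with a median of -0.32. Xist, the 1 sex-linked gene tested, had -1.69. The part of other cells in the values of Itga2b and Selp was not tested.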

How the data were processed

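RNA of sorted LSK cells was sequenced for 6 mice. Per the labels' protocols, libraries were made with a stranded total RNA kit. The submitters' processing notes name the mm10 build, STAR 2.5.2b, featureCounts 1.5.0-p3 and bcl2fastq 2.17. Annotation, strand setting and treatment of multi-mapping reads: not given in the sources used here. Per library, the authors deposited raw counts per gene and FPKM. The deposited FPKM equal count over length and library total, within the rounding of 0.005.

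The test was edgeR 4.0.16 (R 4.3.3) on the counts, a two-sided quasi-likelihood F test with genotype as the only term, after TMM scaling and filterByExpr (minimum count 10, total 15), which kept 12653 of 23420 genes. P-values were Benjamini-Hochberg adjusted over all of these, with a threshold of 0.05. SEs were taken from the fold change and F. DESeq2 1.42.0 and limma 3.58.1 (voom, and log2 FPKM with a pseudocount of 1 or 0.1) were alternatives, as were other scalings and filters, sex as a covariate, a replicate block, removal of the trend on gene length, and leaving out mice. On simulated counts for the same comparison over 12653 genes, with 200 genes changed, 6.80% of 2-fold and 69.6% of 4-fold changes were called, and 4.26% of calls were false. A floor of 3 counts and 95% exact Poisson intervals cover counting error only.

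The 10 members and the 14 lists set beside them were chosen with earlier results of these data known. Named genes were the 10 members, the 3 tested genes of lowest unadjusted p in each list, and a set of lineage and marker genes, of which a few are not reported here. Thbs1, Slc4a1, Mmrn1, F5, Tgfb1, Slc35d3, Lyst, Hps1, Dok2, Fermt3, Rap1b, Stab2 and Sept5 were added after their values were seen. Sequences are from RefSeq (GRCm38.p6), where promoters of Itgb3, Vwf and Rab27b were not used here.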

Additional observations from a re-analysis of the deposited data

How the results depend on the processing

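Over all genes tested, edgeR called 0 genes higher and 0 lower, limma-voom 0, and DESeq2 103 higher and 73 lower. A fit with the replicate block called 5 higher, with Itga2b at 1.66 (adjusted p of 0.120) and Selp at 1.42 (0.123). The correlations of mice with the same number were 0.11, 0.35 and 0.05. Whether the numbers mark shared litters is not stated in the labels, and these values leave it unsettled. With the length trend removed 1 gene was higher. With 1 mouse left out, 0 to 4 genes were higher and 0 to 13 lower, the latter without mutant mouse 1. The members above without overlap were 2 to 4, and those below 0 to 1. Groups separate more easily with fewer mice, and the share over all genes was not taken for these settings. These counts therefore have no background to be read against. Without both mice numbered 2, a setting added after the data were seen, 3 members were positive and the member median was -0.0045, that of Gp9. Itga2b lay between 1.27 and 2.07 and Selp between 1.10 and 1.71 over the alternatives run.

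Directions turned for genes with small or unsteady differences, and the cause was not tested. Vwf was 0.28 by voom, 0.0088 and 0.17 on log2 FPKM with pseudocounts of 1 and 0.1, 0.35 with the replicate block, 1.01 with sex and 0.013 without the length trend, and -1.18 to 1.79 with 1 mouse left out. With sex as a covariate Rab27b was 0.26, Runx1 -0.079, Kit 0.090 and Pecam1 -0.18. The genotype term of that fit, also for Vwf, rests on mutant mouse 3 against the WT mice. By voom and on log2 FPKM with pseudocounts of 1 and 0.1, Gata1 was -0.014, -0.021 and -0.052. On log2 FPKM with pseudocounts of 1 and 0.1, Nfe2 was -0.0279 and -0.0281, and Pecam1 -0.028 and -0.030. Without the length trend Nfe2 was -0.0060. With 1 mouse left out, the ranges were -0.31 to 0.50 for Itgb3, -0.31 to 0.45 for Gata1, -0.11 to 0.22 for Nfe2, -0.13 to 0.26 for Runx1, -0.32 to 0.30 for Pecam1, -2.44 to 0.84 for Alas2 and -2.80 to 0.74 for Hbb-bs. Without both mice numbered 2, Itgb3 was -0.024, Gp1ba -0.25, Gata1 -0.38 and Nfe2 -0.12.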
